A study of Mus musculus with 11 samples.

Results

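The connexin genes of glia, vessels and neurons described here are 7 of the 16228 genes in the deposited table, taken from it by gene symbol. They are Gjb1 and Gjc3, expressed by oligodendrocytes, Gja1 and Gjb6 of astrocytes, Gja4 and Gjc1 of vessels, and Gjd2 of neurons. All 7 passed the filter on low values, as did 14330 genes in all. RNA was sequenced from punches of cerebral cortex of untreated mice at postnatal day 30, with one library per sample. The groups were 4 samples with Ng2 Cre+ Prkci f/f (Prkci cKO), 3 with Ng2-Cre+ Prkcz f/f (Prkcz cKO) and 4 controls (Control). The labels give the genotype Pkcz f/+ for Control replicates 1 and 2, and Pkcz f/f for the other 2 controls, with no Cre named. PRKCI and PRKCZ are the atypical protein kinase C paralogs, enzymes of cell polarity, and the series asked what they do in the oligodendrocyte lineage. Ng2-Cre is driven by regulatory sequence of the gene for the NG2 proteoglycan, which marks oligodendrocyte precursors and also pericytes. The Prkci line had no control of its own, and no label of a control names Cre, so genotype, line and Cre cannot be told apart.

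Connexins are membrane proteins that assemble into channels, and channels of adjoining cells dock to form gap junctions through which ions and small metabolites pass. In the cortex, astrocytes are coupled to each other and to oligodendrocytes in a network that carries potassium and metabolites away from active axons. Endothelial and mural cells of vessels use their own connexins to conduct signals along the vessel wall. In neurons, Gjd2 forms the electrical synapses that couple inhibitory interneurons.

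The values are the authors' normalised signal per gene, which sums to nearly the same total in every library, so each gene was compared between libraries as deposited. The steps of low values gave an effective depth of about 14740000 reads in Prkcz cKO replicate 3 and 20640000 to 28210000 in the other libraries. Prkci was 67.0 ± 1.47 in Prkci cKO (SD, n = 4), against 87.8 ± 2.52 in Control (SD, n = 4), and was lower by limma (log2 change -0.39, adjusted p = 9.84e-04). Prkcz was 278 ± 15.1 in Prkcz cKO (SD, n = 3), against 323 ± 20.2 in Control (SD, n = 4), and did not pass by limma (log2 change -0.22, adjusted p = 0.0966). Tests were limma fits over all 14330 genes and all 11 libraries on log2(signal + 0.5), where the added 0.5 shrinks the fold of low genes. P-values were adjusted over all genes, and a gene was called at an adjusted p under 0.05.

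Both oligodendrocyte connexins fell in Prkci cKO, and Gjc3 fell in Prkcz cKO. Gjb1 encodes Cx32, a gap junction protein of oligodendrocytes and Schwann cells, and lies on chromosome X at 101376378 to 101385629 (GRCm38, plus strand). Gjc3 encodes Cx29 of myelinating glia and lies on chromosome 5 at 137953461 to 137963098 (minus strand). The stretch of 250 bases before the start of Gjc3 and before the first and last of 4 annotated starts of Gjb1 is shown because these were the members that fell. Capitals mark 2 letter strings bound by SOX factors, ACAAAG and AACAAT, searched on both strands, where none of the matches overlapped. Sequences are from RefSeq on GRCm38.p6, each 5′ to 3′ on the strand of its gene.
Gjc3, chr5:137963099-137963348 (minus strand): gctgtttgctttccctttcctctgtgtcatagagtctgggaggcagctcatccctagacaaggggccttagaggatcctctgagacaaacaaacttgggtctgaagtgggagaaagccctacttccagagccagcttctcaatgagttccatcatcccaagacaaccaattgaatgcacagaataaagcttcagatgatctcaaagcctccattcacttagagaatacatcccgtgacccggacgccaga
Gjb1, first start, chrX:101376126-101376375 (plus strand): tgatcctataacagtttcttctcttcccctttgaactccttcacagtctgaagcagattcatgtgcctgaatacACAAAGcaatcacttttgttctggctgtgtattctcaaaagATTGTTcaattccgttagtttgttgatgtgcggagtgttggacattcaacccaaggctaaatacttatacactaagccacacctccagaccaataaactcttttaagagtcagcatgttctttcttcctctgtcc
Gjb1, last start, chrX:101383482-101383731 (plus strand): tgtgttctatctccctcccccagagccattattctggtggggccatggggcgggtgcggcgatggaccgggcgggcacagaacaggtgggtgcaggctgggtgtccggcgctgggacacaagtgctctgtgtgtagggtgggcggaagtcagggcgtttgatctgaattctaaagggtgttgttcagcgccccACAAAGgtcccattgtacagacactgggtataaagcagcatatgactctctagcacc
The window of Gjc3 held neither string. The window at the first Gjb1 start held both, ACAAAG as written and AACAAT on the other strand as ATTGTT, and the window at the last start held ACAAAG. At least one of these strings was present in 7896 of 32851 promoter windows of this length, or 24%, so a match is common and is given as a description. The windows of the other Gjb1 starts and those of Gja1, Gjb6, Gja4 and Gjd2 held neither, and Gjc1 had no entry.

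Gjb1 had a signal of 6.86, 5.64, 5.15 and 7.10 in Prkci cKO replicates 1 to 4, against 12.08, 10.26, 9.43 and 9.60 in Control replicates 1 to 4. Every Prkci cKO library lay below every Control library. The means were 6.19 ± 0.942 in Prkci cKO and 10.3 ± 1.21 in Control (SD, n = 4 each). By limma the log2 change of Gjb1 was -0.70 (SE 0.130, adjusted p = 0.0129), or -38.5%. Gjc3 had 38.47, 35.73, 32.05 and 42.13 in Prkci cKO, against 71.49, 68.42, 53.94 and 57.43 in Control. Again the groups did not overlap, and the 2 Pkcz f/+ controls were the highest libraries. The means were 37.1 ± 4.26 in Prkci cKO and 62.8 ± 8.45 in Control (SD, n = 4 each). By limma Gjc3 changed by -0.75 (log2, SE 0.106, adjusted p = 0.00226), or -40.5%.

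In Prkci cKO against Control, 2 of the 7 members fell, none rose and 5 did not pass. Among all 14330 genes, 230 (1.61%) passed, 216 of them lower (1.51%) and 14 higher (0.0977%). At an unadjusted p under 0.05 there were 3 of the 7 members and 1730 genes (12.1%). All libraries of Prkci cKO lay below all of Control for 762 genes (5.32%), Gjb1 and Gjc3 among them. The median log2 change was -0.00 over the members and 0.00 over all genes. In tissue RNA, fewer cells of a type and less RNA per cell cannot be told apart. With the Pkcz f/f controls alone the change of Gjb1 was -0.59 and was not called (adjusted p = 0.111), nor was it without Prkci cKO replicate 2 (-0.66, adjusted p = 0.0577). Over the 22 alternative settings Gjc3 was called in all and Gjb1 in 20.

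**Figure D1:**
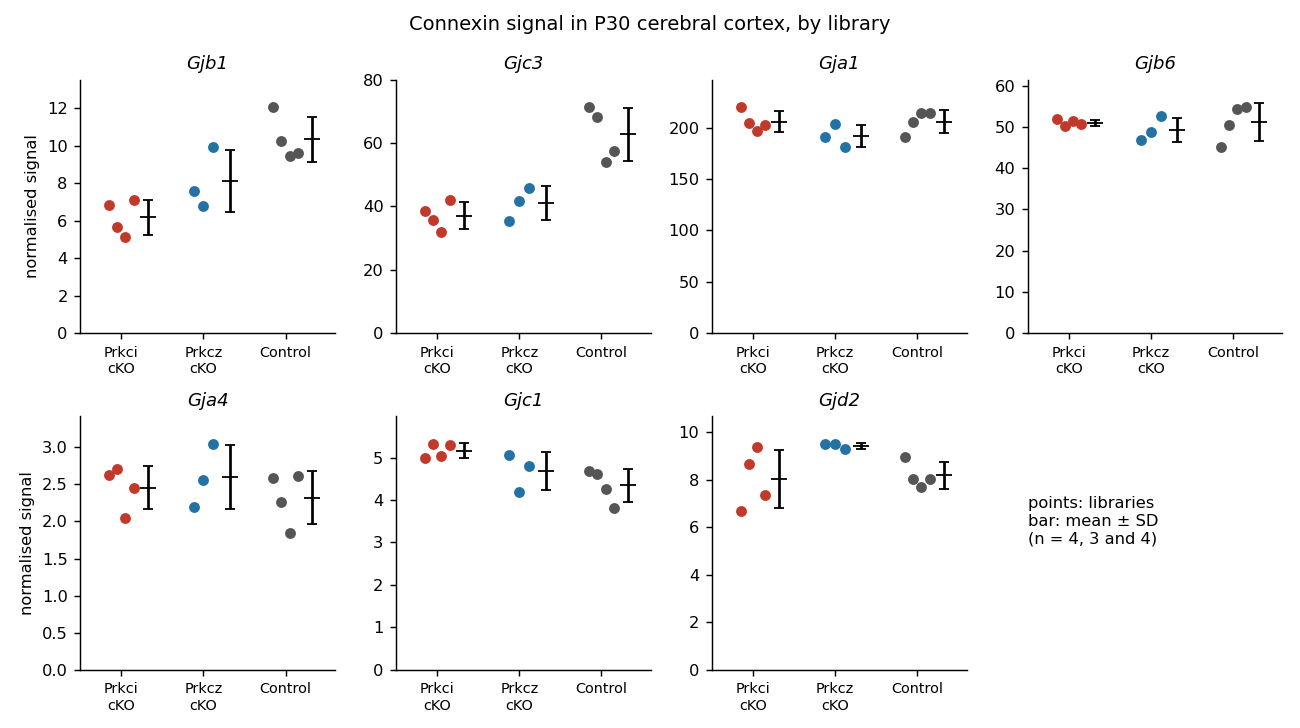
Normalised signal of each connexin (vertical axis, from 0) in Prkci cKO, Prkcz cKO and Control cortex. Points are libraries and bars are means ± SD (n = 4, 3 and 4). Gjb1 and Gjc3 are lower in every Prkci cKO library than in any Control library, while the groups overlap for Gja1, Gjb6 and Gja4.

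In Prkcz cKO, Gjc3 fell and Gjb1 did not pass. Gjc3 had 35.48, 41.71 and 45.99 in Prkcz cKO replicates 1 to 3, all below the lowest Control library at 53.94. The mean was 41.1 ± 5.29 in Prkcz cKO (SD, n = 3), against 62.8 ± 8.45 in Control (SD, n = 4). By limma the log2 change was -0.61 (SE 0.114, adjusted p = 0.0340), or -34.3%. Gjb1 had 7.57, 6.80 and 9.96 in Prkcz cKO, and the third of these lay among the Control values. Its mean was 8.11 ± 1.65 in Prkcz cKO (SD, n = 3), against 10.3 ± 1.21 in Control (SD, n = 4), and its log2 change of -0.34 (95% interval -0.64 to -0.04) did not pass (limma adjusted p = 0.274).

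In Prkcz cKO against Control, 1 of the 7 members fell, none rose and 6 did not pass. Among all 14330 genes, 93 (0.649%) passed, 89 of them lower (0.621%) and 4 higher (0.0279%). At an unadjusted p under 0.05 there were 2 of the 7 members and 2144 genes (15%). The median log2 change was -0.05 over the members and -0.01 over all genes. For 963 genes (6.72%) all libraries of Prkcz cKO lay below all of Control, Gjc3 among them. The call of Gjc3 held in 11 of 22 alternative settings. It was lost with the Pkcz f/f controls alone (-0.44, adjusted p = 0.167) and without any one of the Prkcz cKO libraries, Prkci cKO replicates 1 or 2 or Control replicates 1 or 2 (-0.69 to -0.51 over the libraries left out, adjusted p at most 0.106). Without Prkcz cKO replicate 3, the shallowest library, the change of Gjb1 was -0.49 (adjusted p = 0.206). The comparisons of both knockouts used the same Control libraries.

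The controls were of 2 genotypes. Gjc3 averaged 55.7 in the Pkcz f/f controls and 70.0 in the Pkcz f/+ controls, a log2 difference of -0.33. Gjb1 averaged 9.52 in the Pkcz f/f and 11.2 in the Pkcz f/+ controls, a log2 difference of -0.22. Gjb6, at 54.6 against 47.8 (0.19), and Gja1 (0.11) were higher in the Pkcz f/f controls. Gja4 (-0.11), Gjc1 (-0.18) and Gjd2 (-0.11) were lower in them. With 2 libraries each, these differences were not tested.

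The level of both connexins was set against 20 mature oligodendrocyte genes, a list that includes Mbp of compact myelin. Mbp itself passed in neither knockout. Its log2 change was -0.81 in Prkci cKO (limma adjusted p = 0.0750) and -0.83 in Prkcz cKO (adjusted p = 0.114). In Prkci cKO 16 of the 20 fell and none rose, with a median log2 change of -0.86 and a range of -1.02 to -0.27. Ermn, a cytoskeletal protein of myelin, was 39.2 ± 7.32 in Prkci cKO and 79.4 ± 10.8 in Control (SD, n = 4 each), with a log2 change of -1.02 (limma adjusted p = 9.84e-04). Aspa, the aspartoacylase of oligodendrocytes, was 7.70 ± 0.343 in Prkci cKO and 15 ± 2.39 in Control (SD, n = 4 each), with a log2 change of -0.91 (limma adjusted p = 9.84e-04). In Prkcz cKO 7 of the 20 fell and none rose, with a median of -0.61 and a range of -0.83 to -0.15. Gjb1 and Gjc3 lay within these ranges in both comparisons. Summed over the list, the signal was 3503 to 5502 in Prkci cKO, 4671 to 5225 in Prkcz cKO and 6476 to 9591 in Control. Of 12 newly formed oligodendrocyte genes, 8 fell in Prkci cKO and 6 in Prkcz cKO, among them Gpr17, a receptor of differentiating oligodendrocytes (log2 change -0.60, adjusted p = 8.08e-04 in Prkci cKO and -0.77, adjusted p = 1.86e-04 in Prkcz cKO, limma). Of 12 precursor genes 2 fell in Prkci cKO, Sox10 and Olig2, and 1 in Prkcz cKO, Sox10. Their median log2 change was -0.21 in Prkci cKO, with 9 of 12 below 0 and a range of -0.69 to 0.39. In Prkcz cKO the precursor median was -0.16, with 11 of 12 below 0 and a range of -0.55 to 0.30. Sox10, a transcription factor of the whole lineage, fell by 0.69 in Prkci cKO (limma adjusted p = 0.00226) and by 0.55 in Prkcz cKO (adjusted p = 0.0334).

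Both connexins were also expressed relative to the mean log2 signal of the mature oligodendrocyte list. The 15 differences of this kind, over 5 connexins and 3 comparisons, were tested by exact permutation, whose smallest p is 0.0286 here. After adjustment over the 15, none could pass 0.05 unless at least 9 reached that smallest p, so an adjusted p that misses it says nothing about whether a level differed. The log2 level of Gjc3 minus the list was -1.23 ± 0.0642 in Prkci cKO and -1.25 ± 0.0475 in Control (SD, n = 4 each), a difference of 0.03 (exact permutation p = 0.486, two-sided, adjusted p = 0.800). For Gjb1 it was -3.72 ± 0.0584 in Prkci cKO and -3.80 ± 0.0827 in Control (SD, n = 4 each), a difference of 0.07 (exact permutation p = 0.171, adjusted p = 0.514). In Prkcz cKO Gjb1 stood highest of the 3 groups relative to the list, at -3.57 ± 0.155 (SD, n = 3), with every library above every Control library. That difference of 0.22 had the smallest exact permutation p that 3 against 4 libraries allow, 0.0286, and an adjusted p of 0.214. It was 0.14 without Prkcz cKO replicate 3. Gjc3 minus the list was -1.29 ± 0.152 in Prkcz cKO (SD, n = 3), a difference of -0.04 from Control (exact permutation p = 0.743, adjusted p = 0.800). Within each library the ratio of Gjb1 to Gjc3 signal was 0.166 ± 0.00917 in Prkci cKO (SD, n = 4), 0.198 ± 0.030 in Prkcz cKO (SD, n = 3) and 0.165 ± 0.0107 in Control (SD, n = 4).

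Values of 2 lists outside the lineage stand beside these results. Immediate early genes, induced by neuronal activity and by handling of tissue, had 8 of 12 lower in each knockout. Their summed signal was 422 to 507 in Prkci cKO, 312 to 487 in Prkcz cKO and 560 to 1187 in Control. Striatal genes, which mark tissue beneath the cortex, had none of 12 past the threshold by limma (12 in Prkci cKO and 0 in Prkcz cKO at an unadjusted p under 0.05) and a median log2 change of -0.90 in Prkci cKO and -0.04 in Prkcz cKO. Their summed signal was 371 to 695 in Prkci cKO, 761 to 1694 in Prkcz cKO and 751 to 1258 in Control. The part of either list in the changes of Gjb1 and Gjc3 was not tested. Neuronal genes, most of which do not tell cortex from other brain regions, were summed over 9 genes. That signal was 12835 to 13224 in Prkci cKO, 12480 to 13030 in Prkcz cKO and 12354 to 12778 in Control.

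**Figure D2:**
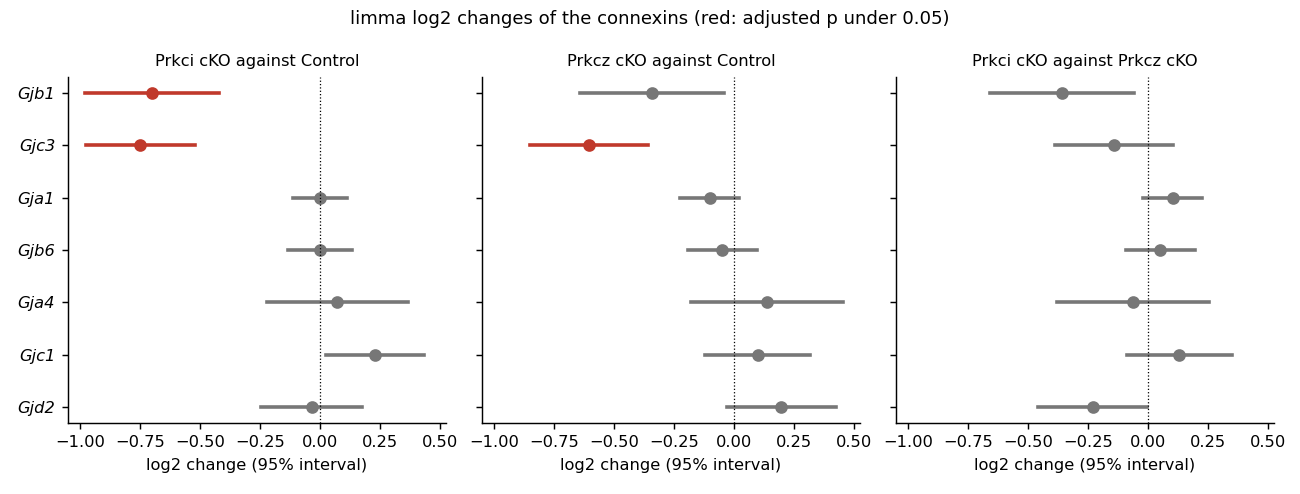
Log2 change of each connexin with its 95% interval (horizontal axis) in the 3 comparisons, from limma on log2(signal + 0.5). Red marks an adjusted p under 0.05, reached by Gjb1 (-0.70) and Gjc3 (-0.75) in Prkci cKO against Control and by Gjc3 (-0.61) in Prkcz cKO against Control.

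The astrocyte connexins did not pass in any comparison, and their intervals were narrow. Gja1 encodes Cx43, the main connexin of astrocytes (chromosome 10, 56377330 to 56402513, plus strand). Gja1 had 220.50, 204.75, 196.62 and 202.41 in Prkci cKO, against 190.75, 205.77, 214.07 and 214.31 in Control. The highest and the lowest control bracketed 3 of the Prkci cKO libraries, so the groups overlapped. The means were 206 ± 10.2 in Prkci cKO and 206 ± 11.1 in Control (SD, n = 4 each). The log2 change was -0.00 (limma adjusted p = 0.997), with a 95% interval of -7.65% to 8.17%. In Prkcz cKO Gja1 had 190.71, 203.68 and 181.86, a mean of 192 ± 11 (SD, n = 3). Its log2 change from Control was -0.10 (95% interval -0.23 to 0.02, limma adjusted p = 0.422).

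Gjb6 encodes Cx30, which pairs with Cx32 between astrocytes and oligodendrocytes (chromosome 14, 57123303 to 57133611, minus strand). Gjb6 had 51.82, 50.17, 51.43 and 50.79 in Prkci cKO, against 45.07, 50.53, 54.28 and 54.87 in Control. All Prkci cKO values lay inside the Control range. The means were 51.1 ± 0.726 in Prkci cKO and 51.2 ± 4.51 in Control (SD, n = 4 each), with a log2 change of 0.00 (limma adjusted p = 0.998) and an interval of -8.82% to 9.73%. In Prkcz cKO Gjb6 had 46.86, 48.68 and 52.56, and the mean was 49.4 ± 2.91 (SD, n = 3), which was -0.05 from Control in log2 (limma adjusted p = 0.757). The decreases of Gjb1 and Gjc3 in Prkci cKO lay outside the intervals of both astrocyte genes, whose lower ends were -0.11 for Gja1 and -0.13 for Gjb6 on the log2 scale.

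Of 16 astrocyte genes 1 fell in each knockout and none rose. In Prkci cKO this was Acsl3, an acyl-CoA synthetase (log2 change -0.19, limma adjusted p = 0.0267). In Prkcz cKO it was Aqp4, the water channel of astrocyte endfeet (-0.46, limma adjusted p = 0.0353). Aqp4 changed by -0.19 in Prkci cKO (limma adjusted p = 0.355) and Acsl3 by -0.08 in Prkcz cKO (adjusted p = 0.381). The median log2 change of the list was -0.02 in Prkci cKO and -0.08 in Prkcz cKO, and its summed signal was 7954 to 8966 in Prkci cKO, 6376 to 7634 in Prkcz cKO and 7920 to 8690 in Control. Relative to the list, Gja1 stood at 0.40 ± 0.0277 in Prkci cKO (SD, n = 4), 0.39 ± 0.00986 in Prkcz cKO (SD, n = 3) and 0.37 ± 0.103 in Control (SD, n = 4). Gjb6 stood at -1.61 ± 0.0729 in Prkci cKO (SD, n = 4), -1.56 ± 0.138 in Prkcz cKO (SD, n = 3) and -1.63 ± 0.153 in Control (SD, n = 4). The differences of these 2 genes from Control were 0.02 to 0.08, within the spread of the Control libraries (exact permutation p from 0.571 to 0.771, adjusted p = 0.800 for each). The ratio of Gjb6 to Gja1 signal was 0.248 ± 0.0111 in Prkci cKO (SD, n = 4), 0.258 ± 0.0271 in Prkcz cKO (SD, n = 3) and 0.248 ± 0.00892 in Control (SD, n = 4).

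Oligodendrocyte connexins were also set against Gja1 within each library. The ratio of Gjc3 to Gja1 signal in a library was 0.163 to 0.208 in Prkci cKO, 0.186 to 0.253 in Prkcz cKO and 0.252 to 0.375 in Control. Prkci cKO lay wholly below Control, whereas the highest Prkcz cKO library lay just above the lowest Control library. The ratio of Gjb1 to Gja1 was 0.0262 to 0.0351 in Prkci cKO, 0.0334 to 0.0548 in Prkcz cKO and 0.0441 to 0.0633 in Control. These ratios were not tested. Each compares a gene with itself across libraries, and its size is not a ratio of molecules, since the genes differ in length.

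Genes that act beside astrocyte and oligodendrocyte gap junctions were described from 2 lists, to be read against the 1.61% of all genes that passed in Prkci cKO and the 0.649% in Prkcz cKO. Of 12 glial potassium and water channel genes, 1 fell in each knockout and none rose. Slc12a2, a sodium, potassium and chloride cotransporter, fell by 0.44 in Prkci cKO (limma adjusted p = 0.0310) and Aqp4, counted above too, in Prkcz cKO. Slc12a2 changed by -0.41 in Prkcz cKO as well and did not pass there (limma adjusted p = 0.0955). Kcnj10, the inward rectifier through which glia take up potassium, had log2 changes of -0.10 in Prkci cKO (adjusted p = 0.746) and -0.29 in Prkcz cKO (adjusted p = 0.211). The list medians were 0.02 in Prkci cKO and -0.15 in Prkcz cKO, where 11 of 12 members were below 0. Of 13 scaffold and trafficking genes tested, 1 fell in Prkci cKO and none in Prkcz cKO, where 4 had an unadjusted p under 0.05 (limma). The one that fell was Jam3, an adhesion molecule, which fell by 0.44 (limma adjusted p = 0.0191). In Prkcz cKO Jam3 changed by -0.25 (limma adjusted p = 0.237). The list medians were 0.04 in Prkci cKO, with 4 of 13 below 0, and -0.10 in Prkcz cKO, with 11 of 13 below 0. Tjp1, the scaffold that binds Cx43, had log2 changes of 0.04 in Prkci cKO (adjusted p = 0.870) and -0.23 in Prkcz cKO (adjusted p = 0.154).

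The vascular connexins were low and did not pass. Gja4 encodes Cx37 of endothelium (chromosome 4, 127311421 to 127314039, minus strand). Gja4 had 2.62, 2.71, 2.05 and 2.45 in Prkci cKO, 2.19, 2.56 and 3.05 in Prkcz cKO and 2.58, 2.26, 1.84 and 2.61 in Control. All the groups overlapped. The log2 change was 0.07 in Prkci cKO (95% interval -0.22 to 0.36, limma adjusted p = 0.888) and 0.14 in Prkcz cKO (-0.18 to 0.45, limma adjusted p = 0.688). These values correspond to about 38.0 to 69.1 reads per library, so counting error alone was sizeable and a change within these intervals was not detectable at this depth.

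The 16 endothelial genes around Gja4 had a median log2 change of 0.15 in Prkci cKO, with none past the threshold and 6 at an unadjusted p under 0.05 (limma). In Prkcz cKO the median was -0.26, and 2 of 16 fell and none rose: Flt1 by 0.50 (limma adjusted p = 0.00964) and Kdr by 0.60 (adjusted p = 0.0379), both receptors of vascular endothelial growth factor. The summed signal was 461 to 514 in Prkci cKO, 342 to 359 in Prkcz cKO and 406 to 463 in Control. Relative to the list, Gja4 stood at -3.19 ± 0.210 in Prkci cKO (SD, n = 4), -2.68 ± 0.197 in Prkcz cKO (SD, n = 3) and -3.11 ± 0.262 in Control (SD, n = 4). The difference of Prkcz cKO from Control was 0.43 (exact permutation p = 0.0857, adjusted p = 0.429). Prkci cKO differed from Prkcz cKO by -0.51, without overlap (exact permutation p = 0.0286, the smallest possible, adjusted p = 0.214). In this comparison Gja4 itself differed by -0.06 (limma adjusted p = 0.857). The list had a median log2 difference of 0.32, with 6 of 16 called higher in Prkci cKO (limma).

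**Figure D3:**
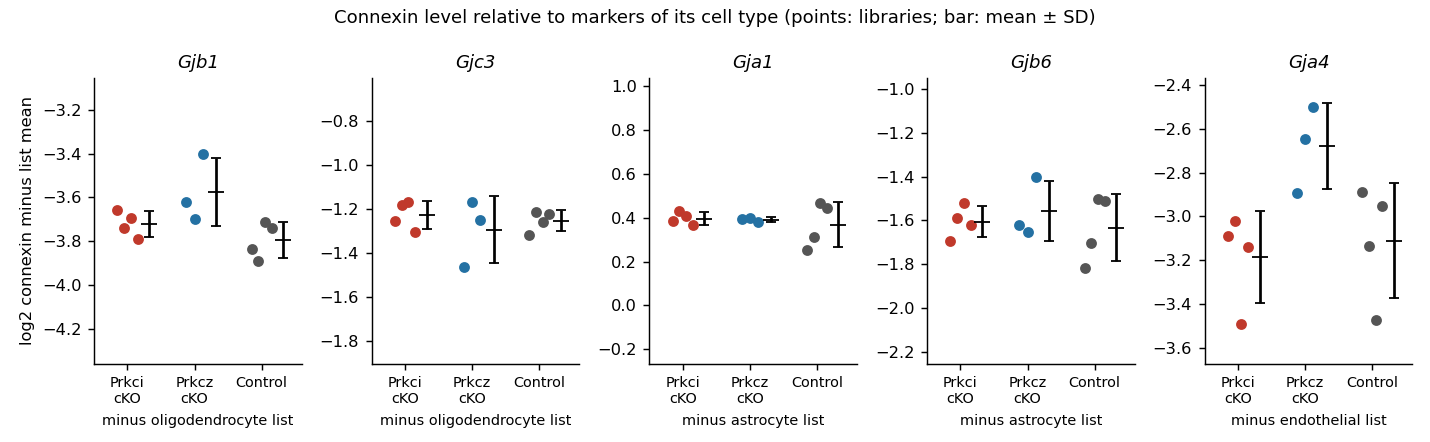
Log2 signal of 5 connexins minus the mean log2 signal of markers of their cell type (vertical axis, each panel spanning the same log2 range) in Prkci cKO, Prkcz cKO and Control. Points are libraries and bars are means ± SD (n = 4, 3 and 4). Gjc3 overlaps between all groups. Relative to its list, Gja4 in Prkcz cKO, at -2.68 on average, lies above Prkci cKO at -3.19. Between these knockouts the log2 difference of Gja4 itself is -0.06 and the list median is 0.32 (Prkci cKO against Prkcz cKO).

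Gjc1 encodes Cx45 of vascular mural cells and some neurons (chromosome 11, 102799579 to 102819700, minus strand). Gjc1 had 4.99, 5.33, 5.03 and 5.29 in Prkci cKO, against 4.68, 4.62, 4.26 and 3.82 in Control. Every Prkci cKO library was above every Control library, which was so for 455 of 14330 genes (3.18%). The means were 5.16 ± 0.175 in Prkci cKO and 4.34 ± 0.396 in Control (SD, n = 4 each). The log2 change of 0.23 (SE 0.0945, 95% interval 0.02 to 0.43) had an unadjusted p of 0.0309 and did not pass (limma adjusted p = 0.343). In Prkcz cKO Gjc1 had 5.06, 4.19 and 4.81, within and above the Control values, and its log2 change was 0.10 (limma adjusted p = 0.670). Of 13 pericyte and smooth muscle genes 1 fell in Prkci cKO and 2 in Prkcz cKO, and none rose. The list had a median log2 change of 0.01 in Prkci cKO, with 6 of 13 below 0, and of -0.39 in Prkcz cKO, with 12 of 13 below 0. Mcam, an adhesion molecule, fell by 0.89 in Prkci cKO (limma adjusted p = 0.00226) and by 0.67 in Prkcz cKO (adjusted p = 0.0353), and Rgs5, a regulator of G protein signalling in pericytes, by 0.39 in Prkcz cKO (adjusted p = 0.0197). The summed signal was 186 to 215 in Prkci cKO, 151 to 167 in Prkcz cKO and 192 to 220 in Control. The part of this list and of the endothelial list in the values of Gjc1 was not tested.

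Gjd2, the neuronal member, encodes Cx36 (chromosome 2, 114009601 to 114013619, minus strand). Its exons overlap those of A530058N18Rik on the other strand, listed at 2.38 to 3.51. No source used here states strand-specific counting, so the reads of this pair may be mixed. Gjd2 had 9.52, 9.49 and 9.28 in Prkcz cKO, against 8.97, 8.04, 7.69 and 8.01 in Control. Every Prkcz cKO library lay above every Control library, as for 739 of 14330 genes (5.16%). The means were 9.43 ± 0.131 in Prkcz cKO (SD, n = 3) and 8.18 ± 0.552 in Control (SD, n = 4), and the log2 change of 0.20 (95% interval -0.03 to 0.42) did not pass (limma adjusted p = 0.408). In Prkci cKO Gjd2 had 6.70, 8.66, 9.37 and 7.35, a spread wider than that of Control on both sides, and its log2 change was -0.04 (limma adjusted p = 0.928). None of 13 inhibitory interneuron genes passed in either knockout, with median log2 changes of 0.01 in Prkci cKO and 0.12 in Prkcz cKO, and 3 had an unadjusted p under 0.05 in Prkci cKO and 1 in Prkcz cKO (limma). The 3 in Prkci cKO were Tac1 (log2 change -0.78), Cort (-0.44) and Htr3a (0.26). Tac1 is on the striatal list too, whose median log2 change was -0.90 in Prkci cKO. Over the list, log2 changes ran from -0.78 to 0.26 in Prkci cKO and from -0.05 to 0.35 in Prkcz cKO. Pvalb, of interneurons with many electrical synapses, had log2 changes of 0.06 in Prkci cKO (adjusted p = 0.868) and 0.20 in Prkcz cKO (adjusted p = 0.348, limma). The summed signal of that list was 1278 to 1394 in Prkci cKO, 1362 to 1437 in Prkcz cKO and 1268 to 1398 in Control.

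Set against each other, the knockouts were not told apart by any member. None of the 7 passed in Prkci cKO against Prkcz cKO (limma), and 2 had an unadjusted p under 0.05, where 2290 of 14330 genes (16.0%) had such a p. Among all genes 43 (0.3%) passed, 9 lower (0.0628%) and 34 higher (0.237%) in Prkci cKO. No member was without overlap between the knockouts, where 921 genes (6.43%) were lower and 1054 (7.36%) higher in every Prkci cKO library. The members at an unadjusted p under 0.05 were Gjb1, with a log2 difference of -0.36 (95% interval -0.66 to -0.06, limma adjusted p = 0.252), and Gjd2, with -0.23 (-0.46 to -0.00, adjusted p = 0.306). Gjc3 differed by -0.14 (-0.39 to 0.10, limma adjusted p = 0.549) and Gja1 by 0.10 (-0.02 to 0.22, adjusted p = 0.393). The other 3 lay between -0.06 and 0.13. With 1 library left out, the difference of Gjb1 was -0.47 to -0.21, that of Gjc3 -0.24 to -0.06, that of Gjd2 -0.31 to -0.15 and that of Gja1 0.06 to 0.14. Without Prkcz cKO replicate 3 those of Gjb1, Gjc3 and Gja1 were at the end nearest 0. These intervals leave room for differences in either direction for most members, so the knockouts are not shown to be alike.

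Between genes, levels were compared as signal per kilobase of the longest principal transcript in GENCODE M21. In Control the order was Gja1 at 64.8 ± 3.47, Gjb6 at 24.3 ± 2.14, Gjc3 at 15.7 ± 2.11, Gjb1 at 6.53 ± 0.765, Gjd2 at 2.84 ± 0.192, Gjc1 at 1.88 ± 0.171 and Gja4 at 1.38 ± 0.213 (signal per kb, SD, n = 4). No neighbours in that order overlapped in their Control ranges. In Prkci cKO the order was the same, with Gjc3 at 9.27 ± 1.07 and Gjb1 at 3.90 ± 0.594 signal per kb (SD, n = 4), and there the lowest Gjb1 library (3.25) met the highest Gjd2 library (3.25). In Prkcz cKO Gjc3 was at 10.3 ± 1.32 and Gjb1 at 5.12 ± 1.04 signal per kb (SD, n = 3). The lead of Gja1 depends on the length used. Its annotated exons together span 10257 bases, against 3182 for the principal transcript, and with all exons the Control mean was 20.1 per kb for Gja1 and 19.1 per kb for Gjb6, with Gja1 still first in every group. Gjc1 stood at 0.868 and Gja4 at 1.38 per kb of all exons in Control, the reverse of their order above.

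**Figure D4:**
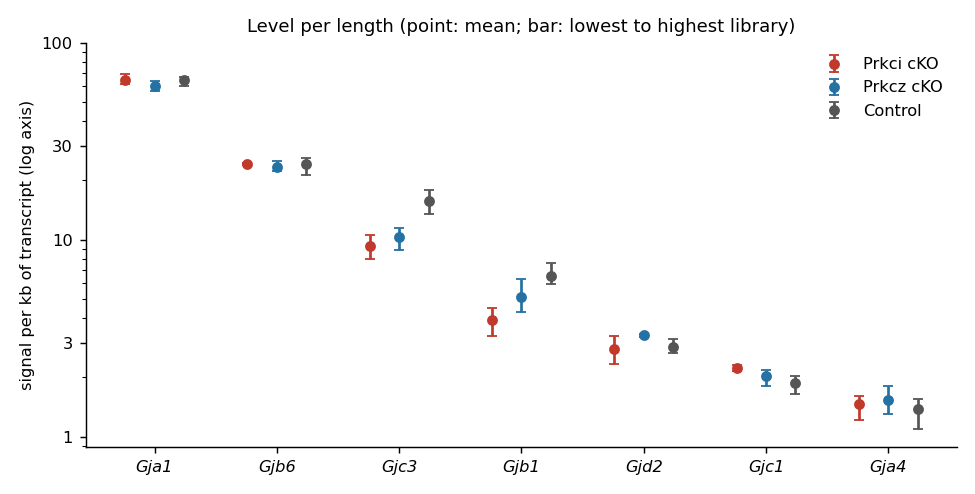
Signal per kilobase of transcript (log axis) of the 7 connexins, ordered by their Control mean, in Prkci cKO, Prkcz cKO and Control. Points are means and bars run from the lowest to the highest library (n = 4, 3 and 4). Gjc3 and Gjb1 sit lower in both knockouts on average, and the rest lie close together across groups.

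Among connexins outside the 7 members, Gjb2, which encodes Cx26 of astrocytes and meninges, was 15.9 ± 0.199 in Prkci cKO (SD, n = 4) and 14.0 ± 0.205 in Prkcz cKO (SD, n = 3), against 12.9 ± 3.31 in Control (SD, n = 4). Its log2 changes of 0.33 in Prkci cKO (limma adjusted p = 0.344) and 0.16 in Prkcz cKO (adjusted p = 0.640) did not pass. Control replicate 1 was lowest at 8.58. The summed signal of fibroblast and meninges markers was 313 to 378 in Prkci cKO, 276 to 316 in Prkcz cKO and 205 to 398 in Control, and its part in the values of Gjb2 was not tested. Gja5, the arterial connexin Cx40, was at most 1.02 in any library, and Gja3 and Gjd3 at most 0.37. The pannexins, channel proteins unrelated in sequence, were Panx1 and Panx2, and neither passed in any comparison (log2 changes from -0.10 to 0.12).

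Genes whose log2 signal followed each member most closely over the 11 libraries were listed as a description, since group differences and shared markers enter these values. Among 11169 genes compared, Gjb1 was closest to Nipal4 (r = 0.987, Spearman rho = 0.955) and Fa2h, which makes hydroxylated fatty acids of myelin lipids (r = 0.966, rho = 0.955). Gjc3 was closest to Arhgef10 (r = 0.990, rho = 0.964) and Sirt2, a deacetylase abundant in oligodendrocytes (r = 0.986, rho = 0.973). After each group's mean was taken away, r was 0.957 for Gjb1 with Nipal4 and 0.944 for Gjc3 with Arhgef10. Gja1 was closest to Tmod3 (r = 0.891, rho = 0.918), Gjb6 to F11r, a junctional adhesion molecule (r = 0.916, rho = 0.955), and Gja4 to Pet112l (r = 0.939, rho = 0.945). Gjc1 was closest to Cd34, a surface protein of endothelium (r = 0.957, rho = 0.927), and Gjd2 to Ezh1 (r = 0.937, rho = 0.936). Between members, Gjb1 and Gjc3 had r = 0.908 (rho = 0.873) over all libraries and 0.783 after the group means were taken away, whereas Gja1 and Gjb6 had 0.503 (rho = 0.473) and 0.439.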

How the data were processed

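RNA of 11 cortex libraries was analysed, from 3 groups taken from the sample titles. Per the submitters' processing notes, FastQC, Trim Galore, STAR, RSEM and edgeR were used on GRCm38, without versions. The values the authors deposited are a normalised signal per gene with 2 decimals, and its columns sum to between 1021767 and 1082562. In each library 85.9% to 89.2% of the values below 0.5 were multiples of a common step to within 0.005, against 14.7% to 28.2% for evenly spread values. Because not nearly all values were whole reads, count tests were left out.

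A gene was tested if its signal reached 1 in 3 or more libraries. Values were log2(signal + 0.5), fitted with limma 3.58.1 in R 4.3.3 (variance trend, a term per group, no covariate), two-sided, with Benjamini-Hochberg adjustment over 14330 genes. Connexins minus cell type lists were compared by exact permutation. Members and lists were chosen with earlier results of these data known. Named genes were the members, up to 3 genes per list by p, and the genes most like each member with a mean log2 of at least 2; Kcnj10, Pvalb and Mbp were named for their role, after values were seen. No listed gene in the table was at 0 in every library. Replicates of a group correlated at r = 0.992 to 0.996, with at most 0.335% identical values. The series describes the replicates as biological. On simulated data of 14330 genes, the share of genes found with a log2 change of 0.5 was 77% for Prkci cKO against Control, 67% for Prkcz cKO against Control and 68% between the knockouts. With a change of 1 it was 97%, 93% and 94% in the same order. Positions and lengths are from GENCODE M21. Alternatives covered the pseudocount, filter, scaling, variance model, samples, control genotype, replicate block and leaving out libraries. Some items are not reported here. Figures were drawn with matplotlib 3.10.9.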

Additional observations from a re-analysis of the deposited data

How the results depend on the processing

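Among the results, Gjc3 in Prkci cKO kept its call in all 22 alternatives. With the Pkcz f/f controls alone Gjb1 in Prkci cKO was -0.59 and Gjc3 in Prkcz cKO was -0.44, and both calls ended. Gjc3 in Prkcz cKO was also not called with the variance trend left out (-0.61, adjusted p = 0.0917), in a fit of those 2 groups (-0.61, adjusted p = 0.0676) and with a replicate block (-0.59, adjusted p = 0.0686). The causes were not tested. Leaving out each library gave -0.77 to -0.62 for Gjb1 and -0.82 to -0.68 for Gjc3 in Prkci cKO, and -0.69 to -0.51 for Gjc3 in Prkcz cKO.

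The count of genes called in Prkci cKO against Control, 230, was 346 with array weights, 132 with the Pkcz f/f controls and 94 to 350 with a library left out. In Prkcz cKO against Control, 93 genes became 30 with no trend, 29 in the fit of 2 groups, 59 with the Pkcz f/f controls and 12 to 111 with a library left out. Between the knockouts, 43 became 112 with array weights, 73 with a replicate block and 10 to 151 with a library left out.

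The labels name no pairing, so the main fit had no term for the replicate number. Deviations from group means correlated over 0.1 in 5 of 10 same-numbered pairs and in 4 of 30 different-numbered pairs. The median r was 0.09 for same-numbered and -0.01 for different-numbered pairs. Whether libraries of the same number share a source was not tested. The replicate block left Gjb1 and Gjc3 called in Prkci cKO (-0.70, adjusted p = 0.0193, and -0.75, adjusted p = 0.00737), and ended only the call of Gjc3 in Prkcz cKO among the members.

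Leaving out 1 library moved these counts by over 1.5 times as follows. Prkci cKO against Control gave 147 without Prkci cKO replicate 1, 94 without Prkci cKO replicate 2, 350 without Prkcz cKO replicate 3. Prkcz cKO against Control gave 27 without Control replicate 1, 50 without Control replicate 2, 52 without Prkci cKO replicate 1, 44 without Prkci cKO replicate 2, 12 without Prkcz cKO replicate 2, 13 without Prkcz cKO replicate 3. Prkci cKO against Prkcz cKO gave 10 without Prkci cKO replicate 1, 14 without Prkci cKO replicate 2, 19 without Prkci cKO replicate 4, 151 without Prkcz cKO replicate 1, 16 without Prkcz cKO replicate 3.

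Values near 0, none of them called, changed sign in some settings. Under median-of-ratios scaling, Gja1 (Prkci cKO against Control) was 0.00342. Under quantile normalization, Gja1 (Prkci cKO against Control) was 0.00185. Under array weights, Gjb6 (Prkci cKO against Control) was -0.0211. Under only the Pkcz f/f controls, Gjb6 (Prkci cKO against Control) was -0.0954, Gjd2 (Prkci cKO against Control) was 0.0183, Gja1 minus astrocyte (Prkci cKO against Control) was -0.0595, Gjb6 minus astrocyte (Prkci cKO against Control) was -0.098, Gja4 minus endothelial (Prkci cKO against Control) was 0.026, Gja1 minus astrocyte (Prkcz cKO against Control) was -0.0641, Gjb6 minus astrocyte (Prkcz cKO against Control) was -0.0507. With a library left out, Gja1 (Prkci cKO against Control) ranged -0.0377 to 0.0213, Gjb6 (Prkci cKO against Control) ranged -0.0588 to 0.0349, Gja4 (Prkci cKO against Control) ranged -0.016 to 0.14, Gjd2 (Prkci cKO against Control) ranged -0.11 to 0.0419, Gja4 (Prkci cKO against Prkcz cKO) ranged -0.16 to 0.0383, Gja1 minus astrocyte (Prkci cKO against Control) ranged -0.0111 to 0.0602, Gjb6 minus astrocyte (Prkci cKO against Control) ranged -0.0321 to 0.0723, Gja4 minus endothelial (Prkci cKO against Control) ranged -0.19 to 0.0285, Gja1 minus astrocyte (Prkcz cKO against Control) ranged -0.0157 to 0.0556, Gja1 minus astrocyte (Prkci cKO against Prkcz cKO) ranged -0.00651 to 0.0149, Gjc3 minus mature oligodendrocyte (Prkcz cKO against Control) ranged -0.10 to 0.0435, Gjc3 minus mature oligodendrocyte (Prkci cKO against Prkcz cKO) ranged -0.0163 to 0.13, Gjb6 minus astrocyte (Prkcz cKO against Control) ranged -0.00295 to 0.12, Gjb6 minus astrocyte (Prkci cKO against Prkcz cKO) ranged -0.095 to 0.0315.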
